A study of Bos taurus with 6 samples.

Results

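Collagen chain genes encode the chains that wind together into the helical proteins of the extracellular matrix. The members were all genes of the deposited comparison table whose symbol reads COL, digits, A, digits in full. They numbered 38 of 27607 genes, and 28 of them had a mean of at least 10 normalized counts and entered the test with 13180 genes in all. Each of those 28 had a mean of at least 10 in both groups (lowest 21.1), so none entered through 1 group alone. They were sorted into 7 classes, with 10 fibrillar, 7 FACIT, 9 network, 4 beaded, 3 transmembrane and 2 multiplexin genes, and 3 others. COL24A1, COL19A1, COL21A1, COL22A1, COL25A1, COL6A4 and COL6A5 were in the class lists but not analysed here.

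The cells were bovine deep zone articular chondrocytes, from the cartilage layer nearest to the bone, collected from 3 knees. Both groups carried a lentivirus from which doxycycline switches on bovine CREB5, which encodes a DNA-binding protein related to CREB and ATF, and had been selected in G418 (500 µg/ml) for 11 days. They were then moved to low attachment plates, where they spent 3 days in medium with 10% FBS, TGFa at 100 ng/ml and TGFb2 at 20 ng/ml. The Dox- group (3 libraries) received no doxycycline, and the Dox+ group (3 libraries) received it at 1 µg/ml by the treatment protocol, although the design text gives 1 mg/ml, so the dose is uncertain. The comparison asked which genes forced CREB5 expression alters in these cells. No library of cells without the CREB5 construct was analysed here, so the action of doxycycline and that of CREB5 cannot be told apart. In bulk libraries, fewer cells of a type and less RNA per cell cannot be told apart either.

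Collagens differ in how they assemble. Fibrillar chains form the banded fibrils that bear tension, with type II and type XI collagen in cartilage and type I, III and V in fibrous tissue and bone. FACIT chains, such as type IX, sit on the surface of fibrils and link them to other matrix. Network chains form sheets, the beaded filaments of type VI surround the chondrocyte, transmembrane chains span the cell membrane, and multiplexins lie near basement membranes. Chondrocytes grown out of their matrix are known to take up type I and type III collagen expression while type II expression declines.

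The libraries held between 20063379 reads (Dox+ 3) and 122366790 reads (Dox+ 2). A count of 3 reads, the floor used here, was worth between 1.32 and 6.98 normalized counts. CREB5 was at 308 to 510 normalized counts in the Dox- libraries and at 12413 to 21964 in the Dox+ libraries, so no library went against its label. Of 11 chondrocyte markers, 10 passed the filter, and SOX9 was at 1885 to 7812 in Dox- and 2688 to 5722 in Dox+ libraries. The eleventh, CNMD, lay between 0 and 9.27. The summed level of the 11 was 354921 to 747103 in Dox- and 217165 to 393485 in Dox+ libraries. This sum includes COL2A1 itself and is mostly FMOD, at 237683 to 457818 in Dox- and 163149 to 293076 in Dox+ libraries. Of the 10 tested, ACAN and CHAD fell and MATN3 rose in limma. With the block COL2A1, PRELP and SNORC were also called lower (adjusted p = 0.0023, 0.0022 and 0.015).

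The collagen genes were mostly lower in Dox+ cells. Of the 28 tested, 23 had a log2 fold change below 0, against 50.5% of all tested genes, and the median was -0.66 against -0.0036 over all tested genes. In limma without a block, 1 collagen gene was called lower and 0 were called higher at an adjusted p under 0.05, while 0.357% of all tested genes were called lower and 2.52% higher. At an unadjusted p under 0.05, 12 collagen genes were lower and 3 higher, against 3.57% and 7.02% of all tested genes. In edgeR's quasi-likelihood test, 1 collagen gene was called lower and 0 higher, against 0.296% and 2.31% of all tested genes. In DESeq2, 12 were called lower and 2 higher, against 1.21% and 4.12%. With the replicate number as a block, 9 collagen genes passed as lower and 1 as higher, against 1.65% and 4.86% of all tested genes. Between same-numbered libraries, 20 collagen genes were lower in each pair and 3 higher, against 19.0% and 19.5% of all tested genes. The Dox+ and Dox- values did not overlap for 13 collagen genes that were lower and for 3 that were higher. Over all tested genes these shares were 6.29% and 8.88%. By class, the median log2 fold change was -0.76 over 10 fibrillar genes, -1.01 over 3 beaded genes and -0.95 over 2 multiplexins. It was -0.46 over 5 FACIT genes, -0.40 over 5 network genes and 0.12 over 2 transmembrane genes.

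**Figure D1:**
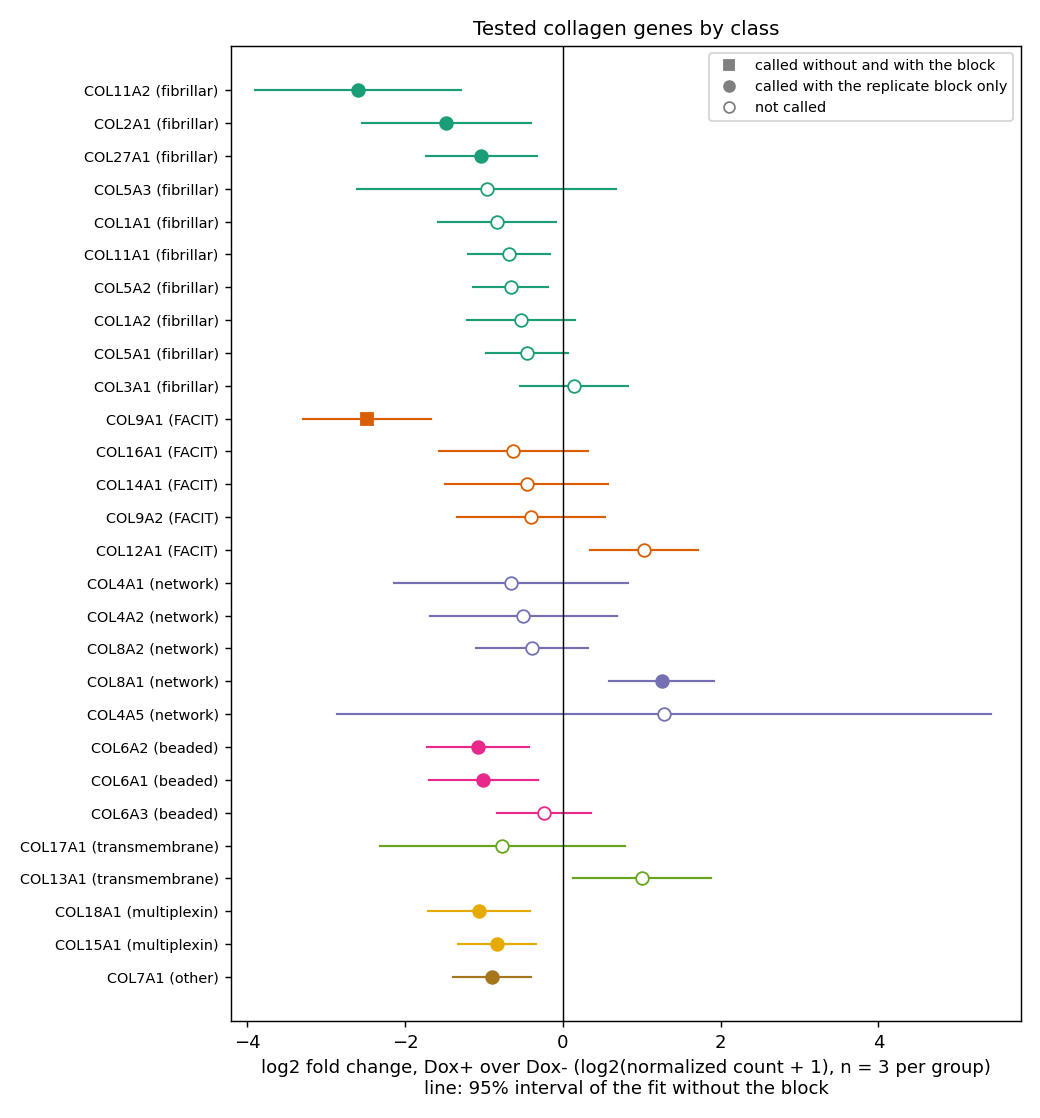
Log2 fold change of each tested collagen gene (x axis, Dox+ over Dox-, on the scale of log2(normalized count + 1), n = 3 per group), with its 95% interval as a line and its class as the colour. COL9A1 is the only square, called without and with the replicate block, and the 9 filled circles were called with the block alone. The estimates of 23 of the 28 genes lie left of 0.

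COL9A1 encodes a chain of type IX collagen, which decorates type II fibrils and carries an arm that reaches into the surrounding matrix. It was at 777, 1433 and 1460 normalized counts in Dox- 1, 2 and 3 and at 212, 305 and 142 in Dox+ 1, 2 and 3. Every Dox+ library was below every Dox- library. COL9A1 fell 5.60-fold (log2 fold change -2.48, SE 0.36, 95% interval -3.29 to -1.67, limma adjusted p = 0.0066). With each library left out in turn, the adjusted p lay between 0.0021 and 0.043. By same-numbered pair it was 3.67-, 4.70- and 10.3-fold lower.

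The partner chains of COL9A1 were measured less well. The row of COL9A2, which the authors' table types as lncRNA, was at 208, 590 and 467 in Dox- 1, 2 and 3 and at 218, 402 and 281 in Dox+ 1, 2 and 3. These ranges overlapped, and the difference did not pass (log2 fold change -0.41, 95% interval -1.35 to 0.54, limma adjusted p = 0.86). COL9A3, the remaining chain, had 11, 13 and 4 reads in Dox- 1, 2 and 3 and 3, 12 and 4 reads in Dox+ 1, 2 and 3, and stayed below the filter. A difference between groups in COL9A3 was not detectable at this depth.

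The fibrillar chains of cartilage were lower in each same-numbered pair. COL11A2, a chain of type XI collagen, which lies in the core of cartilage fibrils, was at 2565, 9324 and 7101 in Dox- 1, 2 and 3 and at 587, 2085 and 630 in Dox+ 1, 2 and 3. The groups did not overlap, although Dox- 1 and Dox+ 2 lay close together. COL11A2 was 6.03-fold lower (log2 fold change -2.59, SE 0.58, limma adjusted p = 0.055 without and 0.00024 with the block). It passed without the block when Dox- 1 (adjusted p = 0.0066) or Dox+ 2 (adjusted p = 0.012) was left out, and without Dox+ 2 its log2 fold change was -3.18. The other main chain, COL11A1, was at 84915, 130887 and 103351 in Dox- and 67115, 61184 and 67542 in Dox+ libraries 1, 2 and 3. It was lower without overlap, 1.61-fold, and did not pass in limma (adjusted p = 0.25 without and 0.13 with the block), but did in DESeq2 (adjusted p = 0.041).

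COL2A1 encodes type II collagen, the main fibril protein of hyaline cartilage. It was at 18352, 57510 and 47987 in Dox- 1, 2 and 3 and at 8779, 22991 and 11650 in Dox+ 1, 2 and 3. Dox- 1 lay below Dox+ 2, so the groups overlapped, while the same-numbered pairs were 2.09-, 2.5- and 4.12-fold lower. The 95% interval of its fit without the block ran from 1.32- to 5.85-fold lower, and its adjusted p was 0.22, and 0.0023 with the block. Without Dox- 1 and without the block, COL2A1 also passed (adjusted p = 0.019).

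COL27A1, a fibrillar chain known from developing cartilage, was at 3712, 7200 and 8510 in Dox- 1, 2 and 3 and at 2459, 3629 and 2977 in Dox+ 1, 2 and 3. All Dox+ values were below all Dox- values. It was 2.05-fold lower (limma adjusted p = 0.18 without and 0.013 with the block, and 0.011 without Dox- 1 and without the block). For COL9A1, COL11A2, COL2A1 and COL27A1 alike, the fold was largest in pair 3. Chondrocyte markers outside the collagens did not all move alike. SOX9, HAPLN1, COMP and FMOD were not called (limma adjusted p = 0.99, 0.83, 0.51 and 0.46 without the block). ACAN, the main cartilage proteoglycan, fell (limma adjusted p = 0.034) and was at 31933 to 87457 in Dox- and 7197 to 21080 in Dox+ libraries. MATN3, a matrilin, rose (limma adjusted p = 0.0068), from 31.1 to 159 up to 639 to 1303. Their part in the result was not tested.

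**Figure D2:**
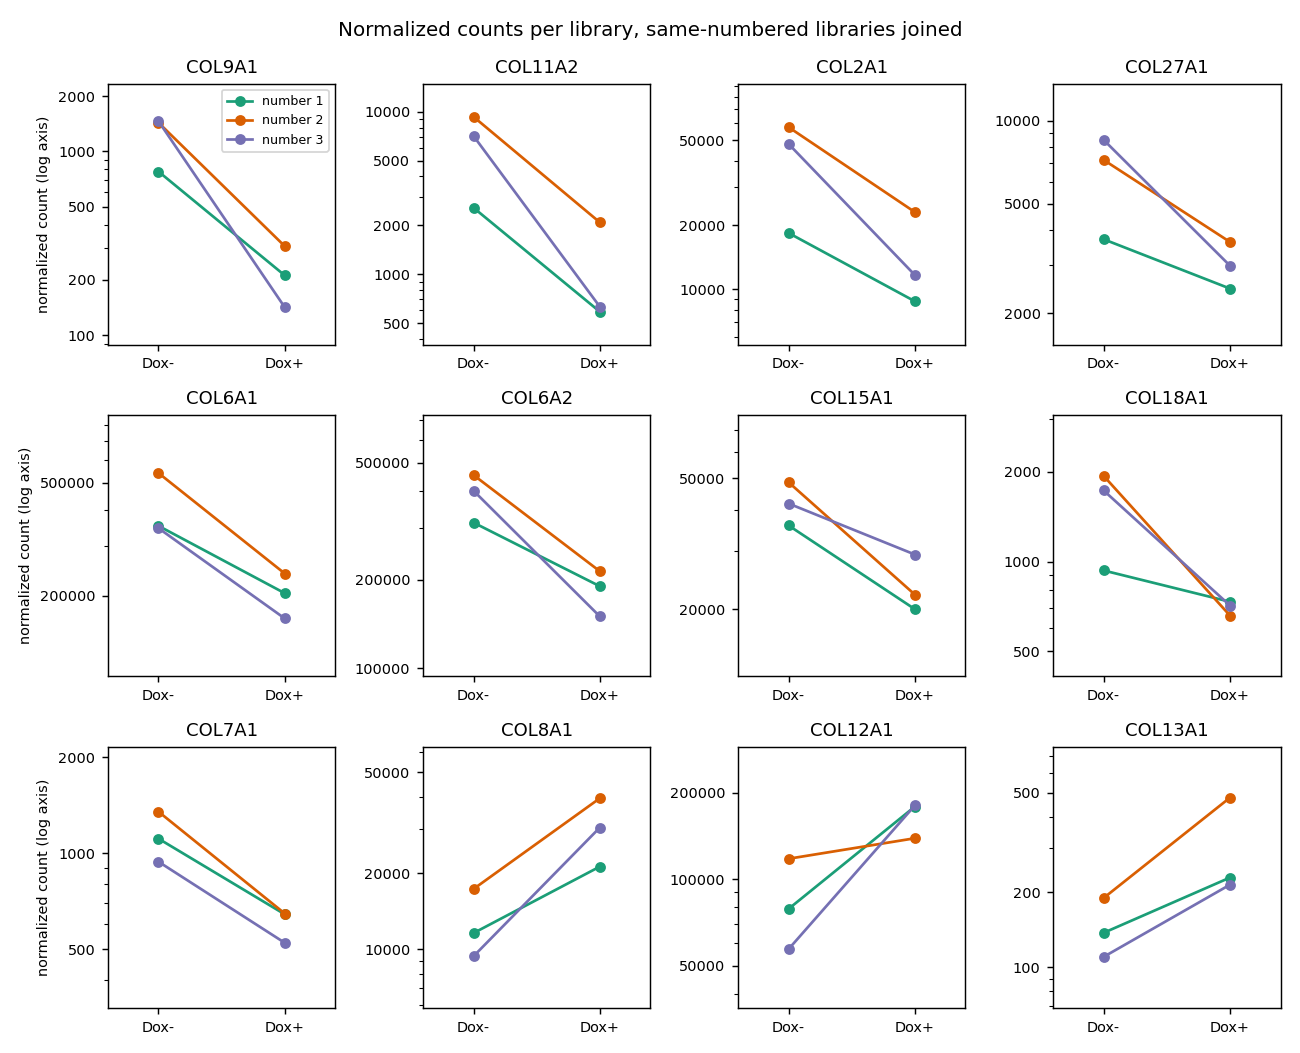
Normalized counts (log axis) of 12 collagen genes in Dox- and Dox+ libraries, with the libraries of the same number joined by a line. Every line falls for COL9A1, COL11A2, COL2A1, COL27A1, COL6A1, COL6A2, COL15A1, COL18A1 and COL7A1, and every line rises for COL8A1, COL12A1 and COL13A1.

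The fibrillar chains of fibrous tissue and bone showed smaller estimated differences than COL11A2, COL2A1 and COL27A1. The split from the cartilage chains was not complete, as COL1A1 (1.79-fold lower) and COL5A3 (1.95-fold lower) differed more than COL11A1 (1.61-fold lower). COL1A1, the main chain of type I collagen, was at 546201, 498253 and 714793 in Dox- 1, 2 and 3 and at 426802, 253373 and 315483 in Dox+ 1, 2 and 3. COL1A2, its partner, was at 631470, 609004 and 508236 in the Dox- and 474232, 362647 and 376588 in the Dox+ libraries. Both were lower in Dox+ cells without overlap, 1.79-fold and 1.45-fold, and neither passed in limma (adjusted p = 0.37 and 0.66 without and 0.15 and 0.40 with the block). In DESeq2 COL1A1 passed (adjusted p = 0.045) and COL1A2 did not (0.18). COL5A1 and COL5A2, chains of type V collagen, which starts type I fibrils, were 1.37-fold and 1.58-fold lower without overlap. They did not pass in limma either (adjusted p = 0.59 and 0.21), while in DESeq2 COL5A2 passed (adjusted p = 0.042).

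COL3A1, which forms the thin fibrils of type III collagen in soft tissue, was at 449134, 474834 and 321568 in Dox- 1, 2 and 3 and at 481463, 421096 and 451781 in Dox+ 1, 2 and 3. The Dox+ values lay within the range of the Dox- values, but for Dox+ 1. Its log2 fold change was 0.14, with a 95% interval of -0.54 to 0.82 (limma adjusted p = 0.94). Its sign turned without Dox- 3 (-0.035). It was the only fibrillar chain with an estimate above 0.

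Type VI collagen forms the beaded filaments of the pericellular matrix that encloses each chondrocyte. COL6A1 was at 352524, 541395 and 345983 in Dox- 1, 2 and 3 and at 204016, 239371 and 166199 in Dox+ 1, 2 and 3. COL6A2 was at 312835, 454276 and 401724 in Dox- 1, 2 and 3 and at 189893, 213575 and 149844 in Dox+ 1, 2 and 3. Neither gene's groups overlapped. COL6A1 was 2.01-fold and COL6A2 2.11-fold lower (limma adjusted p = 0.18 and 0.11 without and 0.041 and 0.035 with the block).

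The call of COL6A1 with the block was lost without number 1 (adjusted p = 0.054) and without number 2 (0.20), and that of COL6A2 without number 2 (limma adjusted p = 0.10). COL6A3, the long chain of the type VI molecule, was at 245137, 288375 and 314120 in Dox- and 233705, 209779 and 275337 in Dox+ libraries 1, 2 and 3. It was lower in each pair but overlapped between the groups (1.18-fold lower, 95% interval of the log2 fold change -0.84 to 0.36, limma adjusted p = 0.87). COL6A6, an alternative to COL6A3, had 0 reads in each Dox- library and 3, 5 and 2 reads in Dox+ 1, 2 and 3, at about the floor.

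Both multiplexins and the anchoring fibril chain were lower. COL15A1, whose protein lies at the outer face of basement membranes, was at 35927, 48602 and 41888 in Dox- 1, 2 and 3 and at 19996, 22139 and 29312 in Dox+ 1, 2 and 3. COL18A1, whose carboxyl end is released as endostatin, was at 933, 1939 and 1732 in Dox- and 733, 658 and 712 in Dox+ libraries 1, 2 and 3. COL7A1, whose row the authors' table types as pseudogene, encodes the anchoring fibrils beneath epithelia and was at 1111, 1350 and 940 in Dox- and 643, 647 and 523 in Dox+ libraries 1, 2 and 3. None of these overlapped between groups.

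They were 1.78-fold (COL15A1), 2.09-fold (COL18A1) and 1.86-fold (COL7A1) lower. The limma adjusted p was 0.11, 0.12 and 0.081 without the block and 0.030, 0.030 and 0.020 with it. Without the block COL18A1 also passed when Dox- 1 was left out (adjusted p = 0.0097). With the block the calls of COL15A1 and COL7A1 were lost without number 1 (adjusted p = 0.13 and 0.12) and without number 2 (0.15 and 0.059). Endothelial markers, summed over the 10 found, were at 1762 to 2585 in Dox- and 846 to 1475 in Dox+ libraries. ERG, which chondrocytes also express, held 1586 to 2358 and 675 to 1249 of these and was called lower with the block alone (limma adjusted p = 0.065 without and 0.0042 with the block). CLDN5 and ESAM were at 0 in every library and CDH5 at no more than 3.68. The part of these markers in the result was not tested.

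COL8A1 was the collagen gene that passed as higher with the block. It encodes a short network chain best known from the eye and from vessel walls. It was at 11577, 17297 and 9376 in Dox- 1, 2 and 3 and at 21211, 39518 and 30266 in Dox+ 1, 2 and 3, with no overlap. It was 2.38-fold higher (log2 fold change 1.25, SE 0.29, limma adjusted p = 0.071 without and 0.0039 with the block), and 1.83-, 2.28- and 3.23-fold higher in pairs 1, 2 and 3. With the block and without numbers 1, 2 and 3 in turn, its log2 fold change was 1.44, 1.28 and 1.03. The adjusted p was then at most 0.00017, but each gene has 1 degree of freedom left in such a fit, so it is a weak check. Its partner COL8A2 was at 2778, 3047 and 6521 in Dox- and 2967, 2530 and 3232 in Dox+ libraries 1, 2 and 3. COL8A2 differed by less than the spread between libraries (limma adjusted p = 0.81).

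COL12A1 and COL13A1 were higher without overlap and did not pass in limma, while COL12A1 passed in DESeq2 (adjusted p = 0.024). COL12A1, a FACIT chain of tendon and other dense tissue, was at 78905, 117822 and 57199 in Dox- 1, 2 and 3 and at 178866, 138805 and 180514 in Dox+ 1, 2 and 3. It was 2.04-fold higher (95% interval 1.27 to 3.27, limma adjusted p = 0.16 without and 0.067 with the block). With the block it passed without number 2 (adjusted p = 0.0018) and without number 3 (0.042). Pair 2 had the smallest change, 1.18-fold. COL13A1, a transmembrane chain found at cell contacts, was at 137, 189 and 110 in Dox- and 228, 477 and 214 in Dox+ libraries 1, 2 and 3. It was 2.01-fold higher (95% interval 1.09 to 3.67, limma adjusted p = 0.35 without and 0.052 with the block), and with the block it passed without number 3 (adjusted p = 0.0026). For both genes, the fits with the block and a number left out have 1 degree of freedom, so they are weak checks.

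Genes listed as markers of other connective tissue cells, read beside these 3 genes, went in both directions. The 8 synovial fibroblast markers summed to 77054 to 106512 in Dox- and 316504 to 647080 in Dox+ libraries, with CLIC5 at 0 throughout. PRG4, the gene of lubricin, rose and held 571 to 1705 of that sum in Dox- and 253217 to 565979 in Dox+ libraries. Most of the sum in Dox- libraries was PDPN and THY1, and both were lower in each pair. PDPN was at 34364 to 44733 in Dox- and 22126 to 26275 in Dox+ libraries, and THY1 at 27764 to 56318 and 14283 to 28141. In the same list DPT was higher and THY1 lower with the block alone (limma adjusted p = 0.0014 and 0.0049). PDPN and CD55 were lower without overlap and were not called (limma adjusted p = 0.15 and 0.45 without and 0.060 and 0.17 with the block). The 8 smooth muscle and pericyte markers summed to 6394 to 13896 and to 9276 to 21957, with MYH11 between 0 and 8.46. In that list MCAM rose 41.9-fold and ACTA2 fell 4.18-fold (limma adjusted p = 0.00021 and 0.0031), and DES was higher with the block alone (adjusted p = 0.0014). The 6 tendon markers summed to 493258 to 806477 and to 259761 to 421901, with TNMD at 0. Nearly all of that sum was TNC and FMOD, and of these the chondrocyte list also holds FMOD. With the block alone TNC was called lower and THBS4 higher (limma adjusted p = 0.012 and 0.022), and MKX was at 1183 to 2059 and 1927 to 2042. Their part in the result was not tested.

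The chains of type IV collagen, the sheet of basement membranes, followed the replicate number more than doxycycline. COL4A1 was at 7993, 2566 and 2419 in Dox- 1, 2 and 3 and at 5943, 972 and 2195 in Dox+ 1, 2 and 3. COL4A2 was at 1494, 600 and 726 in Dox- and 1222, 289 and 646 in Dox+ libraries 1, 2 and 3. Both libraries numbered 1 stood above the other 4 for each gene, and each gene was lower in every pair. The group differences did not pass without the block (limma adjusted p = 0.86 for each) or with it (0.19 and 0.32). The sign of COL4A2 turned without Dox+ 2 (0.036).

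COL4A5 differed by more than 100-fold between libraries of the same group. It was at 135, 5.92 and 1.22 in Dox- 1, 2 and 3 and at 254, 1.77 and 41.9 in Dox+ 1, 2 and 3. Its highest value was 111 times the lowest in Dox- and 144 times the lowest in Dox+ libraries. The interval of its log2 fold change ran from -2.86 to 5.42 (limma adjusted p = 0.90), so neither direction was resolved, and the sign turned without Dox+ 1 (-0.23). COL4A6, its usual partner, had 19, 0 and 1 reads in Dox- and 11, 0 and 0 reads in Dox+ libraries 1, 2 and 3. COL5A3, a fibrillar chain that joins type V collagen, shared the order, at 1282, 398 and 322 in Dox- and 824, 121 and 221 in Dox+ libraries 1, 2 and 3 (limma adjusted p = 0.80 without and 0.078 with the block).

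The endothelial sum did not follow this order: it was lowest within each group in the libraries numbered 1, at 1762 and 846. Most of it was ERG, at 1586 and 675 there, which chondrocytes also express. Of the other tested endothelial markers, VWF was highest within each group in the libraries numbered 1, at 71.1 and 77.8. TEK and PECAM1 were highest in Dox- 2 among the Dox- libraries. The osteoblast markers followed the order of the type IV chains, and summed to 44220 and 64265 in the libraries numbered 1 and to 29575 to 38526 in the other 4. Most of that sum was SPP1, at 25507 to 36356 in Dox- and 28094 to 58701 in Dox+ libraries, and DMP1, a defining marker of osteocytes, was at 0 in every library. ALPL and SP7 were called lower with the block alone (limma adjusted p = 0.00031 and 0.045). The part of these markers in the order was not tested.

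**Figure D3:**
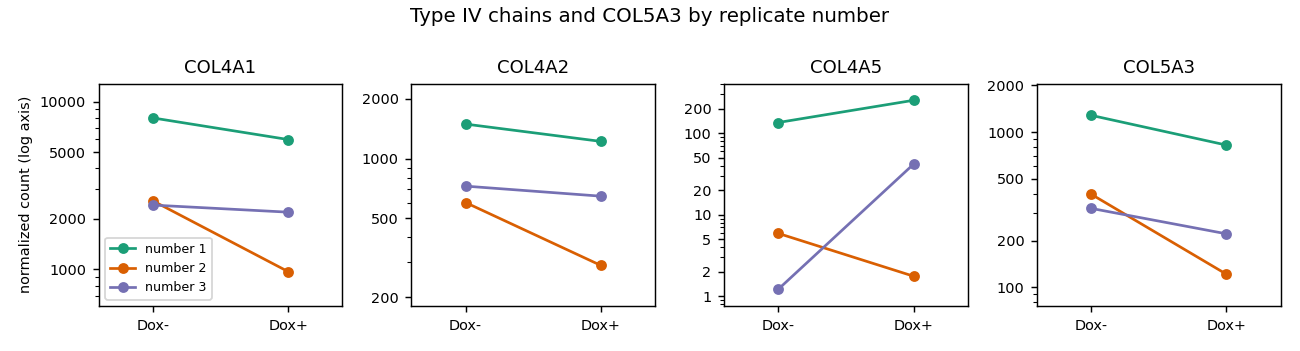
Normalized counts (log axis) of COL4A1, COL4A2, COL4A5 and COL5A3 in Dox- and Dox+ libraries, with the same-numbered libraries joined. The line of number 1 lies above the other 2 in all 4 panels.

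The remaining tested members did not pass in either fit. COL16A1, a FACIT chain, was at 4420 to 12894 in Dox- and 3648 to 7983 in Dox+ libraries and lower in each pair (limma adjusted p = 0.74 without and 0.084 with the block). COL14A1, a FACIT chain of dense connective tissue, was at 3073 to 12276 and 3344 to 6056 (limma adjusted p = 0.86), and its sign turned without Dox- 2 (0.076). COL17A1, a transmembrane chain of epithelial attachment, was at 16.5 to 47.8 and 9.30 to 40.6 (limma adjusted p = 0.84).

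Of the 10 members below the filter, COL4A4 and COL23A1 had 0 reads in every library. COL10A1, the collagen of hypertrophic cartilage, had 0 reads in each Dox- library and 3, 10 and 3 reads in Dox+ 1, 2 and 3. With no filter, it was the 1 collagen gene that limma called higher (adjusted p = 0.021), at counts where 2 of the 3 Dox+ libraries equalled the floor. COL28A1 had 3, 0 and 0 reads in Dox- and 5, 17 and 1 in Dox+ libraries. COL26A1 had 7, 1 and 13 reads in Dox- and 0, 5 and 0 in Dox+ libraries. COL20A1 had 1 to 22 reads in a library, and COL4A3 had at most 1.

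The estimated changes of chains that share a molecule were not all alike. The log2 ratio of partner chains was compared for 9 pairs in which both chains were tested. The smallest p that 3 against 3 libraries allow is 0.10 in an exact two-sided permutation test, so no pair could pass. With the libraries paired by number, an exact sign-flip permutation test, added after the data were seen, allows no p below 0.25. COL9A1 over COL9A2 had log2 ratios of 1.89, 1.28 and 1.64 in Dox- 1, 2 and 3 and of -0.045, -0.40 and -0.98 in Dox+ 1, 2 and 3. The ratio was 4.23-fold lower in Dox+ cells without overlap (exact permutation p = 0.10, adjusted over the 9 pairs 0.36). It rests on the COL9A2 row that the authors' table types as lncRNA. COL8A1 over COL8A2 was 3.13-fold higher without overlap (exact p = 0.10, adjusted 0.36).

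COL11A1 over COL11A2 was 3.76-fold higher, with Dox- 1 above Dox+ 2 and a rise in each pair (exact permutation p = 0.20). COL6A1 over COL6A3 was 1.70-fold lower and COL11A1 over COL2A1 1.73-fold higher, each in all 3 pairs (exact permutation p = 0.20 for both, and 0.25 within pairs). The change in the log2 ratio of COL6A1 over COL6A3 was -0.72, -0.72 and -0.87 in pairs 1, 2 and 3 (SD 0.086), so it varied little between pairs. For COL11A1 over COL2A1 it was 0.72, 0.23 and 1.43 (SD 0.60). In contrast, the log2 ratio of COL6A1 over COL6A2 was 0.070 ± 0.25 in Dox- and 0.14 ± 0.032 in Dox+ cells (SD, n = 3, exact permutation p = 1). That of COL4A1 over COL4A2 was 2.08 ± 0.34 and 1.93 ± 0.30 (exact permutation p = 0.70). For COL1A1 over COL1A2 and COL5A1 over COL5A2 the group means of the log2 ratio differed by -0.31 and 0.21, within the spread of the libraries (exact permutation p = 0.50 for both).

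**Figure D4:**
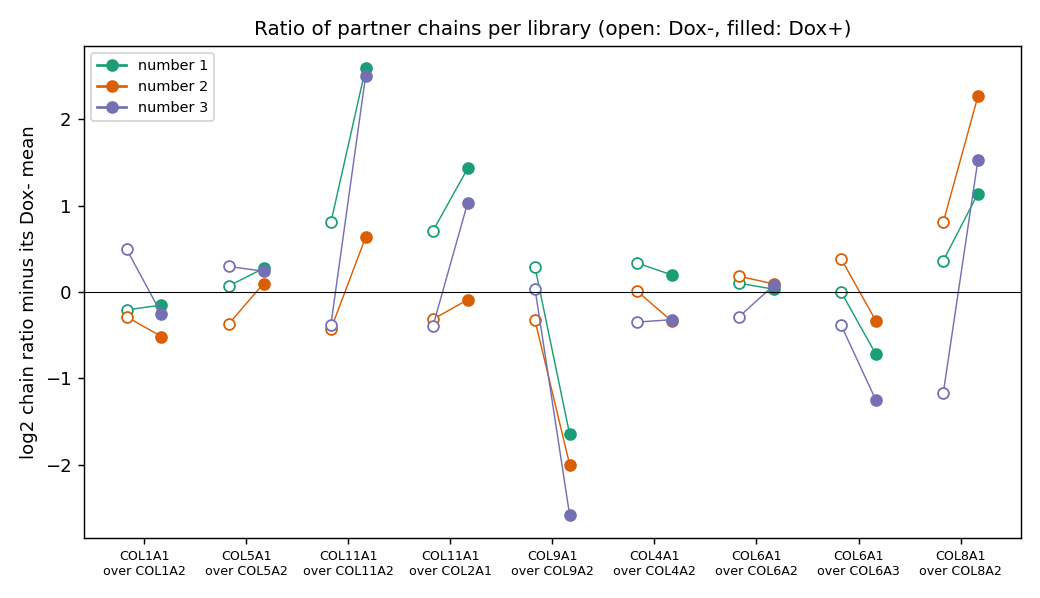
Log2 ratio of partner chains in each library, less the mean of that pair in Dox- libraries (y axis), for 9 pairs, with open circles for Dox-, filled circles for Dox+ and colour for the number. The filled circles lie below all open ones for COL9A1 over COL9A2 and above them for COL8A1 over COL8A2, while those of COL6A1 over COL6A2 stay near 0.

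By RefSeq's gene order on ARS-UCD2.0, where all 38 symbols were matched, 4 pairs of members were direct neighbours. COL6A1 and COL6A2 were lower by similar amounts, with log2 fold changes of -1.01 and -1.08. The estimates of COL4A1 and COL4A2 were -0.66 and -0.50, and neither passed in limma with or without the block. COL5A2 and COL3A1 differed, at -0.66 and 0.14. The fourth pair, COL4A4 and COL4A3, had too few reads for a value.

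All collagen genes together held 5.89%, 5.97% and 5.92% of the normalized counts in Dox- 1, 2 and 3, against 4.86%, 4.02% and 4.81% in Dox+ 1, 2 and 3. The share was thus 5.92% ± 0.039 in Dox- and 4.56% ± 0.47 in Dox+ cells (SD, n = 3), without overlap. Such sums weigh a gene by its transcript length and follow the chains with the most reads. The fibrillar share was 3.43% to 3.81% in Dox- and 2.38% to 3.17% in Dox+ libraries, and the beaded share 1.78% to 2.17% and 1.22% to 1.27%. The FACIT share went the other way, from 0.130% to 0.245% up to 0.284% to 0.404%, and so did the network share, from 0.0356% to 0.0470% up to 0.0616% to 0.0802%. Among the tested members of these classes, COL12A1 and COL8A1 alone were higher without overlap. COL12A1 held 57199 to 117822 of the 69718 to 145046 FACIT counts in Dox- and 138805 to 180514 of 153566 to 188286 in Dox+ libraries. COL8A1 held 9376 to 17297 of the 19045 to 23990 network counts in Dox- and 21211 to 39518 of 31620 to 43315 in Dox+ libraries. The log2 fold change was below 0 for 4 of 5 tested FACIT genes and 3 of 5 tested network genes.

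**Figure D5:**
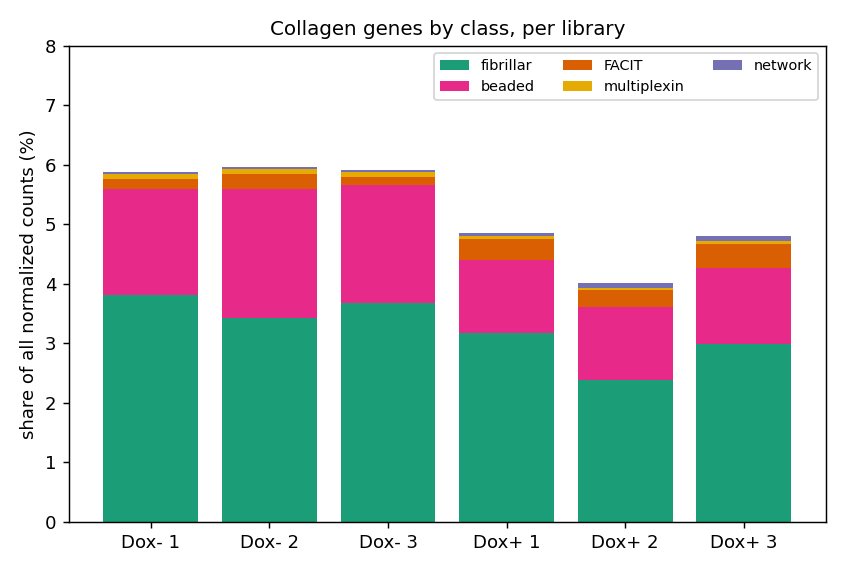
Share of all normalized counts (y axis, %) held by 5 collagen classes in each library, stacked by class. The bars of the Dox- libraries reach 5.89% to 5.97% and those of the Dox+ libraries 4.02% to 4.86%, counted over all collagen genes.

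In the authors' deposited table, 13 collagen genes were lower and 3 higher at an adjusted p under 0.05, against 2.05% and 5.24% of the genes with an adjusted p there. The 3 higher were COL8A1, COL12A1 and COL13A1. The 13 lower were the 9 called with the block and COL1A1, COL5A2, COL5A3 and COL11A1. Of all these, only COL5A3 (adjusted p = 0.96) and COL13A1 (0.13) did not pass in DESeq2 on the recovered reads. The authors' deposited table gave log2 fold changes of -2.52 for COL11A2, -2.39 for COL9A1 and -1.40 for COL2A1.

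Genes that make, bind and break down collagen were read from 3 lists. Over all tested genes, limma called 2.52% higher and 0.357% lower without the block, and 4.86% and 1.65% with it. Of 31 tested genes of collagen biosynthesis, 1 rose, 1 fell and 29 did not pass (median log2 fold change 0.017). LOXL4, a lysyl oxidase that cross-links collagen, fell 3.60-fold, from 8974, 11209 and 17295 in Dox- 1, 2 and 3 to 3457, 2316 and 4665 in Dox+ 1, 2 and 3 (limma adjusted p = 0.015, and 0.052 without Dox+ 1). COLGALT2, a transferase that adds galactose to collagen, rose 4.32-fold, from 321, 109 and 114 to 621, 603 and 881 (limma adjusted p = 0.033). Its call was lost in limma without Dox- 2 (adjusted p = 0.12), Dox- 3 (0.12), Dox+ 1 (0.0955), Dox+ 2 (0.0655) and Dox+ 3 (0.20). PCOLCE2, an enhancer of procollagen cleavage, passed with the block alone (1.58-fold higher, adjusted p = 0.041). SERPINH1, the collagen chaperone, was at 60919 to 96213 in Dox- and 67391 to 103902 in Dox+ libraries (limma adjusted p = 0.93).

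Of 12 tested collagen receptors, 1 rose, 1 fell and 10 did not pass (median -0.28), and 1 was higher and 3 were lower with the block. ITGA11, an integrin subunit that binds fibrillar collagen, fell 3.55-fold, from 2285, 3248 and 5738 in Dox- 1, 2 and 3 to 895, 901 and 1174 in Dox+ 1, 2 and 3 (limma adjusted p = 0.017). ADGRG1, an adhesion receptor for type III collagen, rose 2.91-fold, from 714, 417 and 353 to 1498, 1391 and 1246 (limma adjusted p = 0.021). In limma ITGA11 lost its call without Dox- 2 (adjusted p = 0.057), Dox+ 1 (0.067) and Dox+ 3 (0.070). ADGRG1 lost it in 5 of the 6 such fits, with a limma adjusted p of 0.084, 0.059, 0.095, 0.057 and 0.0997 when Dox- 2, Dox- 3, Dox+ 1, Dox+ 2 and Dox+ 3 were left out in that order. CSPG4, a proteoglycan that binds type VI collagen, was 1.88-fold lower and passed with the block alone (limma adjusted p = 0.090 without and 0.0094 with the block). So did ITGA10, the integrin subunit chondrocytes use to bind type II collagen, at 1.59-fold lower (limma adjusted p = 0.79 without and 0.042 with the block).

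Of 15 tested genes of collagen breakdown, 2 rose, 0 fell and 13 did not pass (median 0.066), and 3 were higher and 1 lower with the block. CTSL, the lysosomal protease cathepsin L, rose from 20.2, 2.96 and 1.83 in Dox- 1, 2 and 3 to 858, 459 and 621 in Dox+ 1, 2 and 3 (101-fold, limma adjusted p = 0.0013). Dox- 2 and 3 held 2 and 3 reads of CTSL, at or under the floor, and its log2 fold change of 6.66 was 7.55 without Dox- 1. MMP3, the protease stromelysin-1, rose from 1448, 214 and 177 to 29990, 6416 and 10178 (32.8-fold, limma adjusted p = 0.011). Its log2 fold change was 5.03, and 6.0 without Dox- 1 and 4.4 without Dox+ 1. The call of MMP3 was lost in limma without Dox- 3 (adjusted p = 0.0502) and without Dox+ 3 (0.068). The collagenase genes differed more by number: MMP13 was at 1589, 54.7 and 45.9 in Dox- and 2914, 76.8 and 151 in Dox+ libraries 1, 2 and 3 (limma adjusted p = 0.91). MMP1 was at 322, 56.2 and 39.7 in Dox- and 802, 200 and 258 in Dox+ libraries (limma adjusted p = 0.41 without and 0.0043 with the block). FAP, a peptidase of activated fibroblasts, was 1.76-fold lower and passed with the block alone (limma adjusted p = 0.61 without and 0.015 with the block).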

How the data were processed

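Messenger RNA libraries (KAPA mRNA HyperPrep, per the labels' protocols) of 6 cultures were grouped by their titles. The signal analysed is the deposited normalized count, which the authors made by dividing the counts of each library by 1 size factor. All nonzero values (100%) were whole multiples of 1 read within 0.01 read, so reads were recovered. Per the submitters' processing notes, which give no role or order, the tools were DESeq2, Salmon, STAR 2.5.2b, MultiQC 1.2 and FastQC 0.11.3, and the builds bosTau9 and ARS-UCD1.2. Neither annotation version nor strand setting is given in the sources used here, so overlapping genes cannot be told apart. The authors' deposited table gives log2 fold changes, SEs and p-values, and whether they were shrunken is not stated. For COL10A1, with 0 reads in each Dox- library, it gives a log2 fold change of 0.093, against 2.68 in limma without a filter. Its fold changes are thus not on the same scale as those of limma for genes with few reads.

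Groups were compared two-sided in R 4.3.3 by limma 3.58.1, with a mean-variance trend and group as the only term, on the log2 of the normalized count plus a pseudocount of 1. Genes entered at a mean of 10 or more, and p-values were adjusted over all of them by Benjamini and Hochberg, with a threshold of 0.05. Alternatives were edgeR (4.0.16) and DESeq2 (1.42.0) on the recovered reads, TMM scaling, a pseudocount of 5, other filters, the replicate number as a block, and libraries left out. The tests were checked on counts simulated without differences between replicate numbers, so that check does not cover the differences between numbers in these libraries. Partner chain ratios used exact permutation tests (scipy 1.17.1).

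Both groups are numbered 1 to 3 in the titles, and the labels name 3 knees without tying them to the numbers. Deviations from group means correlated at 0.65, 0.44 and 0.21 in same-numbered libraries, all above the limit of 0.1. Between libraries of different numbers they correlated at -0.59 to 0.18. The highest of these, Dox- 3 with Dox+ 2, also lay above the limit and near the value of number 3, so the pairing of number 3 is less certain. The numbers were taken to pair the libraries, and blocked values are printed where they change a call. Chi-square per degree of freedom between libraries of a group was 57.9 to 435, so none was a repeat. Depth limits precision, and floors of 3 reads cover counting error only. The members, lists, pairs and the rule for named genes were chosen with earlier results of these data known. All members are accounted for, with values per library for those called with or without the block, for COL1A1, COL1A2, COL2A1, COL3A1, COL9A1, COL10A1 and COL11A1, and for the largest change in each class. Of the biosynthesis, receptor and breakdown lists, the called genes and some of the 4 with the smallest p are named. The erythroid markers summed to 61128 to 108003 in Dox- and 21403 to 46194 in Dox+ libraries, nearly all of it HBA (called lower with the block alone, limma adjusted p = 0.023), with ALAS2 and SLC4A1 at 0. The leukocyte markers summed to 809 to 1488 and 533 to 1299, with ITGAM at 0 and LAPTM5 called lower with the block alone (limma adjusted p = 0.022).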

Additional observations from a re-analysis of the deposited data

How the results depend on the processing

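Of the 28 tested collagen genes, 24 kept their sign in every alternative run. With 1 library left out, the log2 fold change ran from -0.92 to 0.076 for COL14A1 (positive without Dox- 2), from -1.0 to 0.036 for COL4A2 (positive without Dox+ 2), from -0.23 to 3.03 for COL4A5 (negative without Dox+ 1) and from -0.035 to 0.25 for COL3A1 (negative without Dox- 3). With the block and without number 3, COL4A5 was at -0.21 and COL3A1 at -0.037. The log2 ratio change ran from -0.33 to 0.016 for COL4A1 over COL4A2 (positive without Dox- 1) and from -0.074 to 0.16 for COL6A1 over COL6A2 (negative without Dox- 3). None of these 6 was called, and the cause was not tested.

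The replicate block moved the counts of calls. Collagen genes called lower were 9 with the block in limma, 9 in edgeR with the block and 12 in DESeq2, against 1, and those called higher were 1, 1 and 2, against 0. Without a filter 1 was higher. Counts over all genes were 640 higher and 218 lower with the block in limma, 591 and 190 in edgeR with the block, and 542 and 159 in DESeq2, against 332 and 47. With 1 library left out and no block, 1 to 5 collagen genes were lower (5 without Dox- 1, 2 without Dox+ 2) and 0 higher, and over all genes 139 to 365 were higher and 9 to 72 lower. With the block and without numbers 1, 2 and 3 in turn, 6, 5 and 16 collagen genes were lower and 1, 3 and 3 higher. Over all genes these were 188, 276 and 537 lower and 602, 934 and 917 higher. With only 2 pairs in such a fit, each gene has 1 degree of freedom left, so it is a weak check.

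In the biosynthesis list 2 genes were higher with the block in limma and in edgeR and 0 in edgeR without it, against 1. With libraries left out its counts were 0 to 1 higher and 0 to 1 lower without the block, and 1 to 5 and 1 to 2 with it. Receptor genes called lower were 3 with the block in limma and in edgeR and 2 in DESeq2, against 1. With libraries left out 0 to 1 were higher and 0 to 1 lower, and with the block 1 to 2 and 1 to 5. In the breakdown list 1 gene was lower with the block in limma and in edgeR, against 0. With libraries left out 1 to 3 were higher and 0 lower, and with the block 3 to 5 and 0 to 1. The cause of these shifts was not tested. The collagen share of counts was 5.90% to 5.94% in Dox- and 4.41% to 4.83% in Dox+ cells with 1 library left out. TMM scaling, a pseudocount of 5 and a filter at 50 changed no call of a tested collagen gene. The block in limma changed no call of a collagen, biosynthesis, receptor or breakdown gene other than those given in the report. The exact sign-flip test within pairs, added after the data were seen, moved no chain ratio past the threshold, which its smallest p of 0.25 does not allow. Few reads limit the values of the 10 members below the filter.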
